A study of Mus musculus with 6 samples.

Results

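The 6 transcripts followed here are known in human cells as natural substrates of nonsense-mediated RNA decay (NMD): those of GADD45A, GADD45B, UPP1, NAT9, TBL2 and RP9P. They were measured in A375, an established human melanoma line. The genes were chosen by name, with earlier results of these data known. Their 6 Ensembl identifiers were all found among the 62492 in the deposited table. NMD is a surveillance pathway in which a ribosome that ends translation in an unusual context, such as at a premature stop codon or after a short upstream reading frame, leads the UPF and SMG proteins to trigger degradation of the message. Besides faulty messages, the pathway sets the level of a number of normal ones, and the levels of such natural substrates are widely read as a gauge of its activity. A gene-level value sums all isoforms of a gene, so an isoform that is degraded by NMD was not separated here from one that is not.

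The study compared 3 groups of 2 libraries. Per the labels' protocols every group, controls included, was given Cas9 and a guide RNA by lentivirus and was selected with puromycin at 10 µg/mL, and RNA was taken 7 days after selection. The control group had guides against LacZ or Luciferase, which are not genes of these cells, the ABCE1 group had guides labelled sgAbce1, and the YAE1 group had guides labelled sgYAE1. ABCE1 is the ATPase that splits ribosomes into their subunits after termination, and YAE1 works with LTO1 to deliver the iron-sulfur cluster of ABCE1. The genotype label reads wild type for the controls and knockout for the other libraries, but it names Abce2 and Yae2 for the second ABCE1 and YAE1 libraries, so the groups rest on the titles. Whether the cells were a pool or a clone, whether a group used more than 1 guide and whether its libraries stem from separate cultures is not given in the sources used here. A p-value therefore covers the spread between these libraries alone, and that spread may be technical. The organism label reads mouse, whereas the cell type label reads human and all identifiers are human.

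Levels are in FPKM, fragments scaled to gene length and to the library total, so they can be compared between genes. The library totals worked out from the values were 15713011 to 18399717.5 fragments (each read of a pair counts as 0.5). The log2 levels of 12578 genes correlated at r = 0.992 to 0.994 between libraries of a group and at 0.942 to 0.98 between groups. The table pairs no identifier with a symbol and the symbol tables used here are for mouse, with 0 identifiers matched. The names of the 6 genes therefore come with the rule that chose them. The guide targets ABCE1 and YAE1, the UPF and SMG factors and melanoma markers were not analysed here, so the labels have no check on the targeted genes.

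With ABCE1 guides 4 of the 6 genes rose and none fell: GADD45B, GADD45A, UPP1 and NAT9, in order of log2 change. With YAE1 guides GADD45B, GADD45A and NAT9 rose, by less than with ABCE1 guides. TBL2 and RP9P passed the test in neither comparison. A gene passed at an adjusted p under 0.05 in limma, fitted on log2(FPKM + 1) over the 12578 genes that averaged at least 1 FPKM. All 6 genes met that minimum in every library. Many genes passed: with ABCE1 guides the test called 37.5% of genes higher and 20.4% lower, and with YAE1 guides 34.2% and 17.6%. The 6 genes had a median log2 change of 0.66 for ABCE1 guides and 0.26 for YAE1 guides, beside 0.10 for all tested genes in both comparisons. These changes share the control libraries. In bulk RNA, more message per cell and more cells that hold it cannot be told apart, and rates of synthesis and decay were not measured. The split of calls depended on scaling: 64.8% of calls with ABCE1 guides and 66% with YAE1 guides were higher, against 45.5% and 49.1% after centring each library on its median gene.

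**Figure D1:**
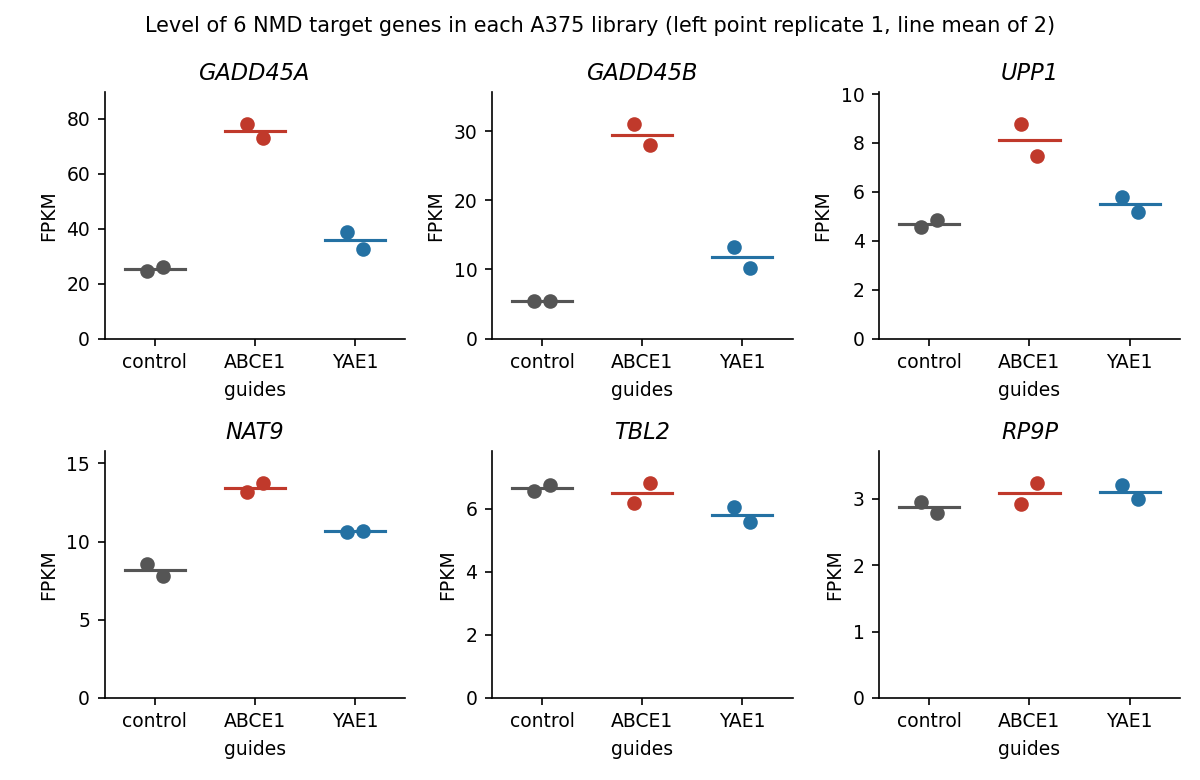
FPKM (y axis, from 0) of each of the 6 genes in each library by guide group (x axis), with replicate 1 as the left point and the mean of 2 libraries as a line. GADD45A, GADD45B and NAT9 step up from control to YAE1 to ABCE1 guides, while the groups of TBL2 and RP9P lie close together.

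GADD45A and GADD45B encode small acidic nuclear proteins that are induced by growth arrest and DNA damage. They bind the kinase MAP3K4 upstream of p38 and JNK, and they also bind PCNA and the CDK1-cyclin B1 complex. GADD45A is a classic p53 target, and both messages turn over rapidly. GADD45A (ENSG00000116717) stood at 24.4 and 26.0 FPKM in the control libraries, at 78.0 and 72.9 FPKM with ABCE1 guides, and at 38.9 and 32.6 FPKM with YAE1 guides. The 3 groups did not overlap, and the ABCE1 libraries were the highest. The mean rose 2.99-fold with ABCE1 guides, from 25.2 ± 1.12 to 75.5 ± 3.57 FPKM (SD, n = 2 each). On the log2(FPKM + 1) scale this was 1.54 ± 0.09 (SE, limma adjusted p = 3.3e-05). With YAE1 guides the mean was 35.8 ± 4.48 FPKM, a 1.42-fold rise (0.48 ± 0.09 on the log2 scale, limma adjusted p = 0.0039). Among all tested genes, 157 (1.25%) had a larger log2 change than GADD45A with ABCE1 guides and 1807 (14.4%) with YAE1 guides.

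GADD45B (ENSG00000099860) stood at 5.41 and 5.44 FPKM in the controls, at 31.0 and 28.0 FPKM with ABCE1 guides and at 13.3 and 10.3 FPKM with YAE1 guides. Again the groups did not overlap and their order was control, YAE1, ABCE1. The control mean was 5.43 ± 0.02 FPKM and the ABCE1 mean 29.5 ± 2.13 FPKM, a 5.44-fold rise (2.24 ± 0.11 on the log2 scale, limma adjusted p = 2.3e-05). The YAE1 mean was 11.8 ± 2.11 FPKM, a 2.17-fold rise (0.98 ± 0.11 on the log2 scale, limma adjusted p = 0.00063). With ABCE1 guides 48 tested genes (0.38%) had a larger log2 change, and with YAE1 guides 298 (2.37%) had. The YAE1 libraries were less alike than the controls for this gene, with a coefficient of variation of 18% against 0.377%. At least 102.5 fragments lay behind each value of GADD45B, a counting error of at most 9.88%, which is more than the spread between its 2 control libraries.

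The paralogs moved by different amounts. The FPKM of GADD45A was 4.51 and 4.78 times that of GADD45B in the controls, 2.51 and 2.60 times with ABCE1 guides, and 2.93 and 3.17 times with YAE1 guides. This ratio is taken within a library and does not depend on how libraries are scaled. GADD45B thus gained more in proportion than GADD45A in both knockouts, while GADD45A stayed the more abundant message in every library. The difference between the paralogs was not tested.

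UPP1 encodes uridine phosphorylase 1, which cleaves uridine to uracil and ribose 1-phosphate in pyrimidine salvage. UPP1 (ENSG00000183696) stood at 4.56 and 4.85 FPKM in the controls, at 8.77 and 7.49 FPKM with ABCE1 guides, and at 5.78 and 5.19 FPKM with YAE1 guides. Here too the 3 groups did not overlap, but the YAE1 libraries lay close to the controls. With ABCE1 guides the mean rose 1.73-fold, from 4.70 ± 0.20 to 8.13 ± 0.91 FPKM, or by 0.67 ± 0.09 on the log2 scale (SE, limma adjusted p = 0.00077). With YAE1 guides the mean was 5.49 ± 0.42 FPKM and the log2 difference from control, 0.18 (95% interval -0.02 to 0.39), did not pass (limma adjusted p = 0.12). This log2 difference was 0.09 after centring each library on its median gene, 0.08 with quantile normalization and 0.12 without YAE1 replicate 1, and it passed under none of the 15 alternatives.

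NAT9 encodes an N-acetyltransferase of the GNAT family. NAT9 (ENSG00000109065) stood at 8.59 and 7.81 FPKM in the controls, at 13.2 and 13.7 FPKM with ABCE1 guides, and at 10.6 and 10.7 FPKM with YAE1 guides. The groups did not overlap, and the knockout libraries agreed closely with their group partner. The control mean was 8.20 ± 0.55 FPKM and the ABCE1 mean 13.4 ± 0.39 FPKM, a 1.64-fold rise (0.65 ± 0.06 on the log2 scale, limma adjusted p = 0.00019). The YAE1 mean was 10.7 ± 0.03 FPKM, a 1.30-fold rise (0.34 ± 0.06 on the log2 scale, limma adjusted p = 0.0035). These are moderate changes in this experiment: 11.3% of tested genes had a larger log2 change than NAT9 with ABCE1 guides and 23.6% with YAE1 guides, and for UPP1 the shares were 10.5% and 39.5%.

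TBL2 encodes a WD-repeat protein of the endoplasmic reticulum membrane that associates with the stress kinase PERK. TBL2 (ENSG00000106638) stood at 6.56 and 6.75 FPKM in the controls, at 6.19 and 6.81 FPKM with ABCE1 guides, and at 6.05 and 5.59 FPKM with YAE1 guides. The ABCE1 libraries lay on either side of the controls, and both YAE1 libraries lay below them. The log2 difference of TBL2 from control was -0.03 with ABCE1 guides (95% interval -0.19 to 0.13, limma adjusted p = 0.72) and -0.17 with YAE1 guides (-0.33 to -0.01, limma adjusted p = 0.076). The upper bound with ABCE1 guides corresponds to a 1.09-fold higher level on that scale, below the lower bounds of the 4 genes that rose, of which the lowest was 1.38-fold for UPP1. The call with YAE1 guides depended on the processing: TBL2 passed as lower after centring each library on its median gene (-0.26, limma adjusted p = 0.019), with quantile normalization (-0.26, limma adjusted p = 0.024) and with voom on recovered fragments (-0.19, limma adjusted p = 0.045). Over all 15 alternatives its limma adjusted p ran from 0.019 to 0.24.

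RP9P is a transcribed pseudogene of the splicing-related gene RP9, and reads that the parent and the copy share could be counted for either, so its level is uncertain. RP9P (ENSG00000205763) stood at 2.96 and 2.79 FPKM in the controls, at 2.93 and 3.24 FPKM with ABCE1 guides, and at 3.22 and 3.01 FPKM with YAE1 guides. The ABCE1 libraries overlapped the controls, and both YAE1 libraries lay just above them. The log2 difference from control was 0.07 with ABCE1 guides (95% interval -0.11 to 0.26, limma adjusted p = 0.43) and 0.08 with YAE1 guides (-0.10 to 0.27, limma adjusted p = 0.38). Its sign turned after centring on the median gene (-0.064 with ABCE1 and -0.012 with YAE1 guides) and with quantile normalization (-0.089 and -0.036). At least 66 to 82 fragments per library lay behind RP9P, a counting error of at most 12.3%.

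**Figure D2:**
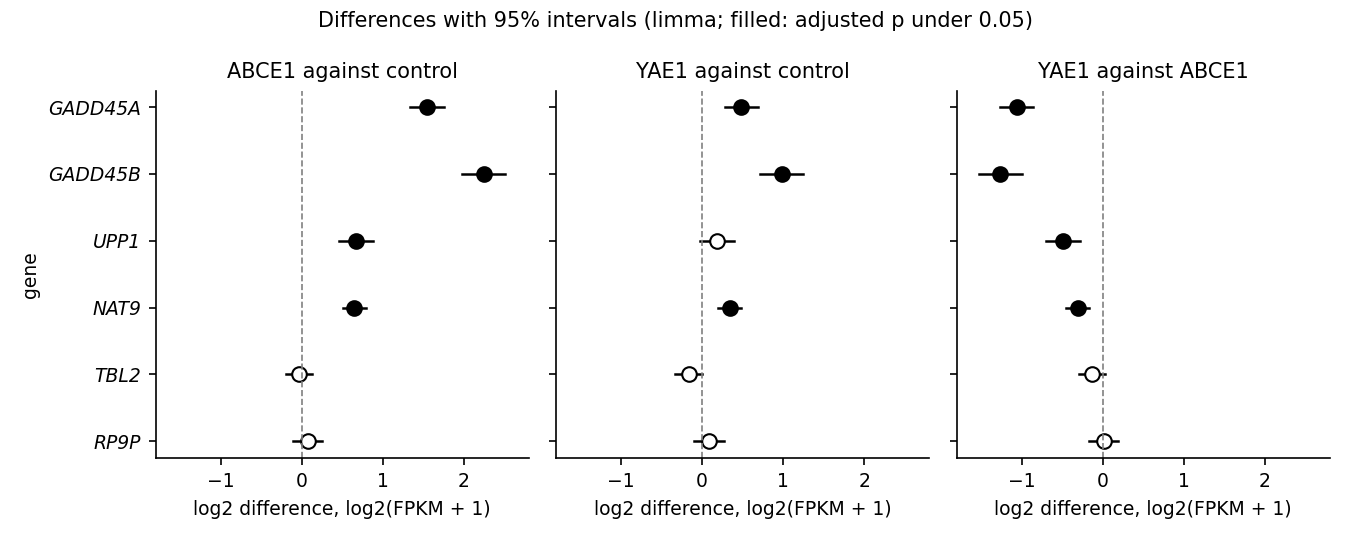
Log2 differences on the log2(FPKM + 1) scale (x axis) with 95% limma intervals for the 6 genes (y axis) in each of the 3 comparisons. Filled points passed at an adjusted p under 0.05: 4 genes with ABCE1 guides, 3 with YAE1 guides, and 4 that were lower with YAE1 than with ABCE1 guides.

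Across all tested genes, libraries of different groups often did not overlap, so separation alone says little about these 6. Shares were worked out for pairs of groups, not for separation of all 3 groups at once. Both ABCE1 libraries lay above both controls for 4 of the 6 genes, as they did for 50.6% of all tested genes. Both YAE1 libraries lay above both controls for 5 of the 6, beside 49.8% of all tested genes, and below both for TBL2, beside 27.9%. The position of the 6 genes among all changes was uneven. The GADD45 genes lay far in the upper tail with ABCE1 guides, UPP1 and NAT9 on its shoulder, and TBL2 and RP9P in the middle, where 63.1% and 52.4% of tested genes had a larger log2 change.

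**Figure D3:**
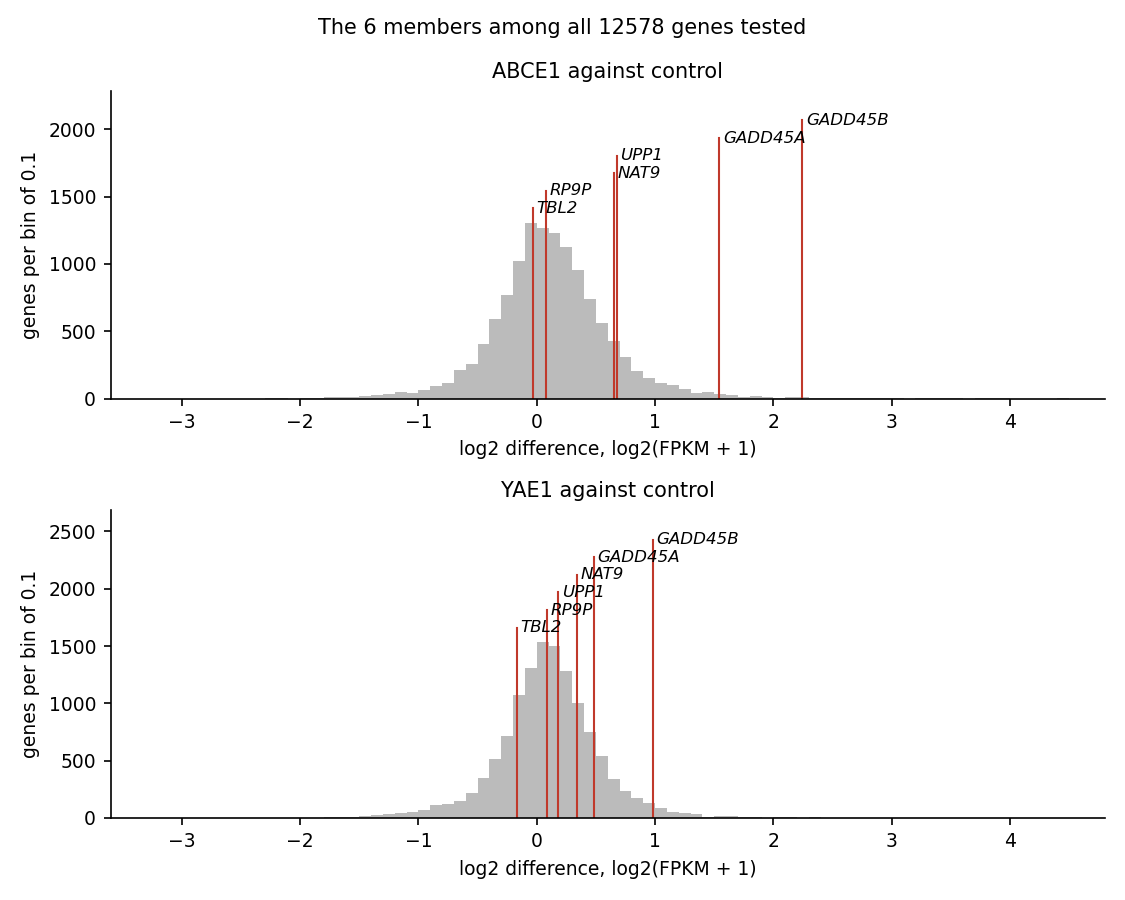
Number of tested genes per bin of 0.1 (y axis) by log2 difference from control (x axis) for ABCE1 guides (top) and YAE1 guides (bottom), with red lines at the 6 named genes. With ABCE1 guides GADD45A and GADD45B lie at 1.54 and 2.24, far from the median of 0.10, and with YAE1 guides at 0.48 and 0.98.

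Set directly against each other, YAE1 guides gave lower levels than ABCE1 guides for 4 of the 6 genes and higher levels for none. Of all tested genes 18.7% were lower and 15.3% higher in this comparison. Both YAE1 libraries lay below both ABCE1 libraries for 5 of the 6 genes, all but RP9P, and for 36.8% of all tested genes. GADD45B was lower by a log2 difference of -1.26 ± 0.11 (SE, limma adjusted p = 0.002) and GADD45A by -1.06 ± 0.09 (limma adjusted p = 0.0018). The mean level with YAE1 guides was 0.399 times that with ABCE1 guides for GADD45B and 0.474 times for GADD45A. Only 39 tested genes had a more negative difference than GADD45B, and 83 had one more negative than GADD45A.

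UPP1 was also lower with YAE1 than with ABCE1 guides (-0.49 ± 0.09, limma adjusted p = 0.0086), as was NAT9 (-0.31 ± 0.06, limma adjusted p = 0.011). The call for UPP1 was lost with no filter on low genes (limma adjusted p = 0.0502), and that for NAT9 without ABCE1 replicate 2 (-0.28, limma adjusted p = 0.064). Over the alternatives the limma adjusted p ran from 0.0004 to 0.0502 for UPP1 and from 0.002 to 0.064 for NAT9. TBL2 (-0.14, 95% interval -0.30 to 0.02, limma adjusted p = 0.16) and RP9P (0.01, -0.17 to 0.19, limma adjusted p = 0.93) did not pass.

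The order of the 6 levels changed with the guides. In the controls it was GADD45A, NAT9, TBL2, GADD45B, UPP1 and RP9P, and no neighbours in that order overlapped between libraries. With ABCE1 guides GADD45B moved from the fourth to the second place, and the order was GADD45A, GADD45B, NAT9, UPP1, TBL2 and RP9P, again with no overlap between neighbours. With YAE1 guides GADD45B (10.3 and 13.3 FPKM) and NAT9 (10.6 and 10.7 FPKM) overlapped, as did TBL2 (5.59 and 6.05 FPKM) and UPP1 (5.19 and 5.78 FPKM), although TBL2 was above UPP1 within each YAE1 library. GADD45A was highest and RP9P lowest in all 3 groups.

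TBL2 was taken as a reference within each library, a choice made after its values were seen. GADD45A stood at 3.72 and 3.85 times the FPKM of TBL2 in the controls, at 12.6 and 10.7 times with ABCE1 guides, and at 6.44 and 5.83 times with YAE1 guides. GADD45B went from 0.825 and 0.806 times TBL2 to 5.01 and 4.11 times with ABCE1 guides and to 2.19 and 1.84 times with YAE1 guides, so it crossed from below TBL2 to above it. NAT9 went from 1.31 and 1.16 times to 2.13 and 2.02 times with ABCE1 guides and 1.76 and 1.91 times with YAE1 guides. For UPP1 the ratio was 0.696 and 0.718 in the controls, 1.42 and 1.10 with ABCE1 guides, and 0.956 and 0.928 with YAE1 guides. RP9P stood at 0.451 and 0.414 times TBL2 in the controls, at 0.473 and 0.475 times with ABCE1 guides, and at 0.532 and 0.538 times with YAE1 guides. These ratios do not depend on the scaling of whole libraries. All 5 were above both control ratios in all 4 knockout libraries, RP9P included. The share of all tested genes with such ratios to TBL2 was not worked out. TBL2 itself was lower than in the controls in both YAE1 libraries and in ABCE1 replicate 1 (6.19 FPKM), so the direction alone sets no gene apart. The sizes differed, from a mean ratio of 0.816 in the controls to 4.56 with ABCE1 guides for GADD45B and from 0.432 to 0.474 for RP9P.

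**Figure D4:**
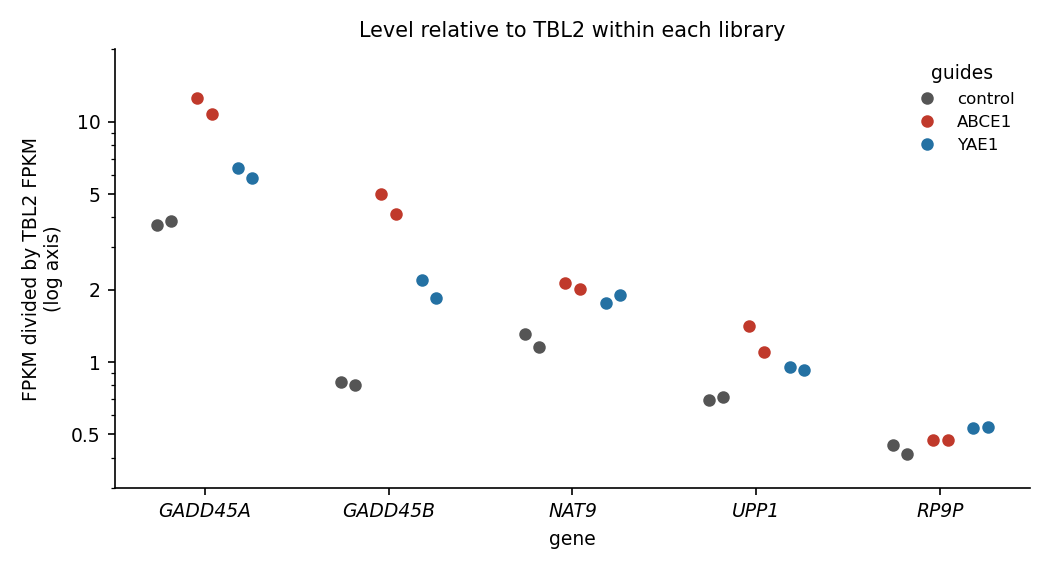
FPKM of 5 genes divided by that of TBL2 in the same library (y axis, log scale), by gene (x axis) and guide group (colour, 2 libraries each). Every knockout library lies above both controls for all 5 genes, by little for RP9P, and GADD45B crosses a ratio of 1. How many of all tested genes would also lie above both controls was not worked out.

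The genes whose profile was most like those of the GADD45 genes were sought among 7042 other genes that averaged at least 5 FPKM, by Pearson's r of log2(FPKM + 1) over the 6 libraries. With 3 groups of 2 libraries such an r mainly reflects the 3 group means, and it does not depend on the size of the change. For GADD45A this was ENSG00000147471 (r = 0.999), with a smaller log2 change of 0.35 with ABCE1 guides. With YAE1 guides its log2 change of 0.10 did not pass (limma adjusted p = 0.16), unlike that of GADD45A. For GADD45B it was ENSG00000006327 (r = 0.999), which stood at 43.2 and 44.2 FPKM in the controls, 88.9 and 84.8 FPKM with ABCE1 guides and 63.3 and 55.9 FPKM with YAE1 guides. The files used here pair neither identifier with a name.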

How the data were processed

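RNA-seq of 6 A375 libraries (strand-specific, 150 bp pairs, per the labels' protocols) was analysed from 1 table of FPKM values that the authors deposited. The build is GRCh37, per the submitters' processing notes, with aligner, counter and annotation not given in the sources used here. Groups were taken from the sample titles. The 6 genes and the tests were chosen with earlier results of these data known. All 6 genes are named whatever their values, plus the gene most like each GADD45 gene. Symbol lists of NMD factors, GADD45 partners, other NMD targets and cell markers were not analysed here, since no identifier matched a symbol table.

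The 12578 genes that averaged at least 1 FPKM were tested with limma 3.58.1 (R 4.3.3) on log2(FPKM + 1). A single model held all 6 libraries and 3 group means, with trended eBayes moderation, and p-values were Benjamini-Hochberg adjusted over these genes. The log2(FPKM + 1) scale understates changes of low genes. Its residual degrees of freedom were 3, with 3.6 added by moderation. With 2 libraries against 2, an exact permutation test reaches no two-sided p below 0.333 and was not used. Fragment numbers were worked out from the steps of the FPKM values (38269 of 38269 genes above 0, tolerance 2e-05 steps). Gene lengths were tried until a gene's values fitted, and a value of 0 always fits. For genes above 0 in few libraries this full share was thus nearly fixed in advance and does not test the recovery. The whole-number unit was read as 1 read of a pair, because its spread between replicates was 2.47 to 2.56 times the Poisson value. This does not settle the unit, since variation between libraries also widens that spread and 43.3% of the units at low levels were odd. The library totals and fragment numbers rest on this reading. A common divisor of a gene's values is unknown, so fragments per gene are minimum numbers, and counting errors cover counting only. Both scripts were tested on simulated data. The simulation for fragment numbers did not test the reading of the unit, and that for limma used a single dispersion for all genes. Alternatives were pseudocounts of 0.1 and 0.5, other filters, centring, quantile normalization, voom, 4 libraries per fit, a replicate block and leaving out each library.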

Additional observations from a re-analysis of the deposited data

Results flagged for a closer look

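The change from control differed between the knockouts for 4 of the 6 genes, by the direct comparison of YAE1 with ABCE1 guides, in which 18.7% of all tested genes were called lower and 15.3% higher. The log2 change with YAE1 guides minus that with ABCE1 guides was -1.26 for GADD45B (limma adjusted p = 0.002, 2.62e-06 to 0.0218 over the alternatives) and -1.06 for GADD45A (limma adjusted p = 0.0018, up to 0.0204 over the alternatives). It was -0.49 for UPP1 (limma adjusted p = 0.0086, up to 0.0502) and -0.31 for NAT9 (limma adjusted p = 0.011, up to 0.064), so that 1 alternative each ended these calls. All 4 were lower in both YAE1 libraries than in both ABCE1 libraries, as were 36.8% of all tested genes. With 2 libraries per group, outlying libraries were not looked for.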

How the results depend on the processing

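Of 267 values of the 6 genes under the alternatives, 255 kept their direction and their side of the threshold. The other filters, 4 libraries per fit and the replicate block leave the log2 difference as it is. So does leaving out a library of the group not compared. In these alternatives only the side of the threshold could change. Every call for GADD45A and GADD45B was kept under all 15 alternatives, as were those for NAT9 and UPP1 against control. With YAE1 guides TBL2 passed as lower after centring on the median gene (-0.26), with quantile normalization (-0.26) and with voom (-0.19). RP9P turned after centring (-0.064 with ABCE1 guides, -0.012 with YAE1 guides) and with quantile normalization (-0.089 and -0.036). Leaving out each library in turn moved TBL2 with ABCE1 guides from -0.090 to 0.028, and RP9P with YAE1 against ABCE1 guides from -0.043 to 0.064. In that comparison NAT9 moved from -0.34 to -0.28 (not past the threshold without ABCE1 replicate 2), and with no filter UPP1 did not pass (-0.49, limma adjusted p = 0.0502). The cause of these shifts was not tested.

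Counts over all genes moved more. With a minimum of 5 FPKM, where fewer genes are tested, 4761 genes were called with ABCE1 guides (2845 higher) and 2621 were higher with YAE1 guides, against 7278, 4715 and 4303. Centring gave 3915 lower with ABCE1 guides against 2563. Between the knockouts 4279 genes differed (1928 higher and 2351 lower with YAE1 guides), 2091 with no filter (907 and 1184) and 1811 to 3721 leaving out each library in turn (835 to 1641 and 976 to 2080), where the lone library of a group is assumed to vary like the others. It was 1811 without ABCE1 replicate 1 and 1963 without ABCE1 replicate 2.

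The groups share replicate numbers, but nothing says that a number marks a shared culture, and same-numbered libraries did not deviate together (r = -0.05, -0.01 and -0.01 across genes). With the replicate block 7058, 6264 and 3778 genes were called against 7278, 6517 and 4279, and no call for the 6 genes changed. RP9P lies below 5 FPKM and has no value under that filter. Counting errors of the 6 genes were at most 12.3%.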
